A study of Mus musculus with 12 samples.

Results

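The semaphorins, plexins and neuropilins were examined as 31 genes, of which 20 encode semaphorins (the ligands), 9 encode plexins (the receptors) and 2 encode neuropilins (the co-receptors). Their accessible regions were taken from ATAC-seq peaks merged over 12 libraries wherever they touched by at least 1 bp. A region belonged to a gene when it lay in the gene body or up to 5000 bp before one of its transcription start sites (TSS). This rule gave 683 of 263785 merged regions (0.259%). The libraries were made from primary cortical neurons of wild-type C57BL/6 mouse embryos at embryonic day 18, with 3 libraries in each of 4 groups. The PBS group received the vehicle, and the PFF group received pre-formed fibrils of human alpha-synuclein, in both cases for 7 days. The PFF+MLi-2 group received the same fibrils and, over the last 5 days, the LRRK2 kinase inhibitor MLi-2, and the PFF+Rab5 ASO group received PFF with antisense oligonucleotides against the endosomal GTPases Rab5a and Rab5b over the last 3 days. Libraries of MLi-2 or of oligonucleotides without PFF, or with a control oligonucleotide, were not analysed here.

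Semaphorins are secreted or membrane-bound guidance proteins that bind plexins on the receiving cell. The secreted class 3 members mostly need a neuropilin to bind, and the plexin then acts inside the cell through its GTPase-activating domain and through kinases and cytoskeletal proteins, which collapses growth cones, steers axons and prunes synapses. In the developing cortex these proteins set the course of axons and the migration of interneurons, and several of them act at synapses later on. ATAC-seq does not measure these proteins or their mRNA. It counts fragments released by the transposase Tn5 at open chromatin.

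Height was read as a percentile. In each library, the highest peak within a region was placed among all peaks of that library by its fold enrichment over the local background, from 0 for the lowest to 100 for the highest. Because the background is local, a peak inside a wide open area can hold many fragments and still rank low. The fragment pileup at the summit, recovered from the deposited values, is therefore given beside peaks of interest. It was 8 to 78 fragments over the member peaks, with a median of 20. Groups were compared by limma, a linear model fitted to all regions called in every library, on normal scores of these ranks. An effect is the difference of the group means in SD of the score, and a region passed when its p, adjusted over all 72465 such regions, was under 0.05.

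The 5 stretches of sequence that follow, from GRCm38 and on the plus strand, are shown because the results turn on the regions that hold them. They are the introns with the largest effect in each direction among the regions that passed in PFF+Rab5 ASO vs PFF (Plxna4, Sema3e) and in PFF+Rab5 ASO vs PBS (Nrp1, with none higher), the start of the Sema6b gene, which the study examined, and a promoter region that was called in some groups and not in others. Capitals mark matches to 1 of 6 motifs, searched on both strands: CACGTG, the E-box that the TFEB family binds, CAGATG, an E-box of the NeuroD type, TGANTCA for AP-1, TGACGTCA for CREB, the palindromic NFI motif, and GGGCGG for the SP and KLF families. None of these motifs contains another, although the last can overlap itself.

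Plxna4 intron 12, chr6:32212478-32212777: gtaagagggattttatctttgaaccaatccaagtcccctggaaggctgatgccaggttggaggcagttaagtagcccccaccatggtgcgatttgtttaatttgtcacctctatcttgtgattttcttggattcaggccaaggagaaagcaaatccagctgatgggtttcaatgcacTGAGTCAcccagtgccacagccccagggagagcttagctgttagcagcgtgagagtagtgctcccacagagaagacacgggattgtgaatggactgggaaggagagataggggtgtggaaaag
Sema3e intron 4, chr5:14195218-14195517: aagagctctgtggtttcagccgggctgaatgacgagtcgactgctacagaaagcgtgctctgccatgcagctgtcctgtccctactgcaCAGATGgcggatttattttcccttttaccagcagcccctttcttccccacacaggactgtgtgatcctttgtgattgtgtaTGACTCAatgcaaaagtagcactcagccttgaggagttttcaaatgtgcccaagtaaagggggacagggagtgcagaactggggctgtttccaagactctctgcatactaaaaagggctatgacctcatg
Nrp1 intron 4, chr8:128429033-128429332: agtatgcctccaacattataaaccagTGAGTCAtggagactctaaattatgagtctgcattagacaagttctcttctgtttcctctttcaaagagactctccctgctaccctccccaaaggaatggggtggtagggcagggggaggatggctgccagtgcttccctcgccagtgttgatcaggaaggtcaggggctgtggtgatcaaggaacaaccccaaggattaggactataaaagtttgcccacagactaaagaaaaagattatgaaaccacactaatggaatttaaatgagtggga
Sema6b promoter, bases before the gene start, chr17:56140344-56140477: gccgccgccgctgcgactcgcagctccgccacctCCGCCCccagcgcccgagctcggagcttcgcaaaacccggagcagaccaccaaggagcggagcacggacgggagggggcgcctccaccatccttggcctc
Plxnb3 promoter, chrX:73756443-73756626: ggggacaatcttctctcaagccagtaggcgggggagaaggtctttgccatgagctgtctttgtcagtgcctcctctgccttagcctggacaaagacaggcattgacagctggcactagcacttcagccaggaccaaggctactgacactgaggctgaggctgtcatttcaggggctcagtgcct

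The intronic stretches of Plxna4, Sema3e and Nrp1 each held 1 match to the AP-1 motif, that of Sema3e held a NeuroD-type E-box as well, and the Plxnb3 stretch held no match. The match of Nrp1 lies outside the window of 100 bp on each side of the summit that was used for counting. Within 100 bp of the summit, the AP-1 motif was present in 56 of 505 member introns (11.1%) and in 11.9% of all intron regions of protein-coding genes. The CACGTG E-box stood in 3 of 125 member promoter regions (2.4%), compared with 5.84% of promoter regions of protein-coding genes, and in 19 member introns (3.76%), compared with 3.28%. Among the 11 member regions that passed the test, the CACGTG E-box stood in 2, both in Plxna4 intron 3, and the AP-1 motif in 3. The CREB motif occurred in 4 member regions and the NFI motif in 0 of 683. The GGGCGG box was found in 43 member promoters (34.4%) and 37.7% of promoters in general. These matches are letters in a window and were not tied to any factor.

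The 12 lists held 137417 to 184717 peaks each, with a median summit pileup of 16 to 18 fragments. The PFF+Rab5 ASO libraries had shorter smallest peak widths (53 to 59 bp) than the other 9 (62 to 66 bp) and a higher relative depth (1.05 to 1.31, compared with 0.773 to 1.03), and this difference runs along with every comparison of that group. Its part in the results was not tested. PBS replicate 1 held 180989 peaks, compared with 137417 and 152173 in the other PBS libraries. The labels were checked against marker promoters: those of 5 of 5 neuronal genes and 5 of 5 projection neuron genes were called in every library, as were 3 of 4 astrocyte, 4 of 6 oligodendrocyte lineage and 4 of 5 interneuron genes, whereas 0 of 5 microglial and 1 of 3 endothelial genes were, and Aif1, Cx3cr1, Pecam1 and the myelin gene Mog had no promoter peak in any library. An open promoter does not give the number of cells of its type, and the study reports that GFAP-positive cells were rare and neurons abundant. From these lists a change within neurons and a change in the mix of cells cannot be told apart.

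The members were rich in regions. The median member held 12 regions, compared with 3 for protein-coding genes, and per 10 kb of gene 2.49 compared with 1.65. Plxna4, a receptor for class 3 and class 6 semaphorins, held 95, the most of the 31, and Sema6d, a transmembrane ligand, and Sema5a, a transmembrane ligand with thrombospondin repeats, followed with 86 and 67. At the other end, Sema4g held 2, and Sema3g, Sema4c and Plxna3 held 4 each. By class, introns made up 505 of the 683, promoter regions (within 1000 bp of a TSS) 125, exons 32 and regions further upstream 21.

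The secreted ligands of class 3 held 101 regions over 7 genes. Sema3a held 5 promoter and 27 intron regions, Sema3c 3 and 12, Sema3d 4 and 10, Sema3e 2 and 14 with 2 in exons and 1 upstream, and Sema3f 2 and 7 with 1 upstream. Sema3b held 3 promoter, 1 exon and 3 upstream regions and Sema3g 1 promoter, 1 intron and 2 upstream. This class had the smallest share called in every library among the semaphorin classes, 22.8%.

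The membrane-bound ligands differed widely in the number of intron regions they held. In class 4, with 55 regions and 49.1% called in every library, Sema4d held 8 promoter, 17 intron, 1 exon and 1 upstream region, Sema4a 8 promoter and 1 exon, Sema4b 2 promoter, 2 exon and 3 intron, Sema4f 3 promoter and 3 intron, and Sema4c and Sema4g 4 and 2 promoter regions only. In classes 5 and 6, Sema5a held 3 promoter, 60 intron, 2 exon and 2 upstream regions, Sema5b 5 promoter, 31 intron and 1 exon, Sema6d 3 promoter and 83 intron, and Sema6a 6 promoter, 24 intron, 2 exon and 1 upstream. The shorter Sema6b held 5 promoter, 2 intron, 3 exon and 2 upstream regions, Sema6c 4 promoter and 2 exon, and the lipid-anchored Sema7a 3 promoter, 3 intron, 1 exon and 1 upstream.

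Among the receptors the A-type plexins held 152 of the regions. Plxna4 held 3 promoter, 91 intron and 1 upstream region, Plxna2 6 promoter, 30 intron, 3 exon and 2 upstream, Plxna1 5 promoter and 7 intron, and the X-linked Plxna3 4 promoter regions only. The B-type plexins were compact, with 4 promoter, 2 intron and 1 upstream region in Plxnb1, 4 promoter and 5 intron in Plxnb2, and 3 promoter and 2 exon in Plxnb3, none of which was called in every library. Plxnc1 held 7 promoter, 22 intron and 2 exon regions and Plxnd1 6 promoter, 11 intron, 2 exon and 1 upstream. The co-receptors Nrp1 and Nrp2 held 27 regions each, with 5 and 2 promoter, 19 and 21 intron, 2 and 3 exon and 1 and 1 upstream region.

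**Figure D1:**
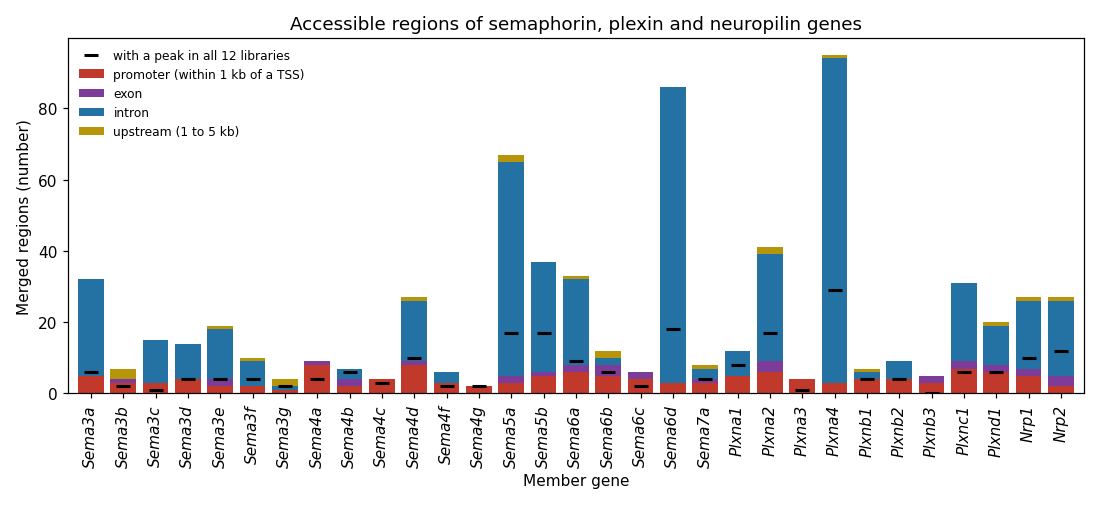
Number of merged accessible regions of each member gene (bars, coloured by class of region) and the number of them called in all 12 libraries (black dashes). Plxna4 (95 regions), Sema6d (86) and Sema5a (67) stand above the other genes and consist mostly of introns.

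Peaks of the members were shared between libraries somewhat more often than peaks in general. Of the 683 regions, 220 were called in every library (32.2%, compared with 27.5% of all regions) and 145 in a single library (21.2%, compared with 26.6%). Member promoters were called throughout in 48% of cases, close to the 49.9% of promoters of protein-coding genes, and member introns in 27.7%, compared with 22.5%. Member promoters were lower than others in rank, with a median percentile of 27.4 compared with 39.3, although their median pileup was 29 compared with 32 fragments. These figures describe 2 sets of regions and carry no test.

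Ligands held 6 of the 8 highest promoters. A main promoter region was taken for each gene as its promoter region with the highest mean percentile, so these values lie above those of its other promoter regions by construction. It was called in all 12 libraries in 29 of 31 genes (93.5%), compared with 62.7% of protein-coding genes. The member genes had more promoter regions to pick from (125 over 31 genes, compared with 36884 over 21938). Counted by region, the shares called in every library were 48% and 49.9%. Of the 31, 8 lay on average above the 90th percentile, 13 between 75 and 90, 7 between 50 and 75, and 3 below 50. Sema3d and Sema3c, secreted ligands of class 3, stood at 99.2 and 94.8. Sema4f and Sema4b, membrane-bound ligands of class 4, stood at 98.2 and 97.0, Sema6c at 94.8, and Sema4d, the ligand of Plxnb1, at 92.5. Among the receptors, only Plxnc1, which binds Sema7a, and Plxna3, which works with neuropilins for class 3 ligands, passed 90, at 93.9 and 90.4. The TSS of any annotated transcript counted, so some main promoter regions lie well inside the gene. That of Plxnc1 lies in intron 20 of the longest coding transcript, and those of Sema4d and Plxnb2 in intron 1. Those of Sema3f and Plxna1 lie over coding exons, 533 and 976 bp from the nearest TSS.

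Most of the remaining ligands lay in the upper middle. These were Sema5b (88.8), Sema3a (86.0), Sema3f (84.6), Sema4g (82.8), Sema5a (82.4), Sema6d (81.7), Sema3b (81.2), Sema4a (79.0), Sema7a (77.5) and Sema3e (77.0), together with the receptors Plxna2 (80.9), Plxnb2 (80.2) and Plxna1 (78.2). Lower came Sema6a (64.3), Plxna4 (61.4), Nrp2 (59.9), Plxnd1 (58.8), Sema4c (56.4) and Sema6b (54.7). Of the 30 pairs of neighbours in the order of all 31 genes, 24 lay closer than the SD between libraries of 1 group, which was 4.11 percentiles for the median gene. The 6 wider steps were those between Sema3d, Sema4f, Sema4b and Sema3c at the top, from Sema3e to Sema6a, and from Plxnb1 to Nrp1 and on to Sema3g at the bottom. Plxna4 thus had the most regions of any member and a promoter of middle height.

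Nrp1 and 3 further genes had low or uneven promoters. Nrp1, the co-receptor shared by Sema3a and vascular endothelial growth factor, had its main promoter region at a mean percentile of 38.9. It lay at 35.2, 47.2 and 44.2 in PBS, 43.8, 44.4 and 17.9 in PFF, 9.8, 33.3 and 17.2 in PFF+MLi-2 and 50.4, 69.4 and 53.9 in PFF+Rab5 ASO. The PFF+Rab5 ASO libraries were all above the others in percentile, and the region also lies within 1000 bp of the TSS of Mir1903. The summit pileup was 37, 41 and 33 fragments in PFF+Rab5 ASO and 34, 37 and 27 in PFF, so these groups overlapped in fragments. It was 32, 30 and 30 in PBS and 24, 28 and 25 in PFF+MLi-2. The limma effect was 0.73 in PFF+Rab5 ASO vs PFF (adjusted p = 0.14) and did not pass. Plxnb1 lay at 48.7 on average. Sema3g, whose region also lies within 1000 bp of the TSS of Nisch, was called in 10 libraries, with 1 of 3 in PFF+MLi-2, at percentiles of 5.1 to 38.8.

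Plxnb3, a receptor of Sema5a, had the most variable main promoter. It was called in 11 libraries and lay at 54.8, 7.7 and 62.8 in PBS, at 79.7, 68.7 and 83.9 in PFF, at 54.6, 55.4 and 67.1 in PFF+MLi-2, and at 8.7 and 28.3 in PFF+Rab5 ASO, where replicate 3 had no peak. The PFF libraries were above all others. The region was not in the limma test because a library lacked it. A second promoter region of the same gene, the Plxnb3 sequence printed above, was called in all 3 PFF libraries (12, 9 and 11 fragments), in PBS replicate 1 (10 fragments) and in 0 of the 6 libraries with MLi-2 or Rab5 ASO.

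**Figure D2:**
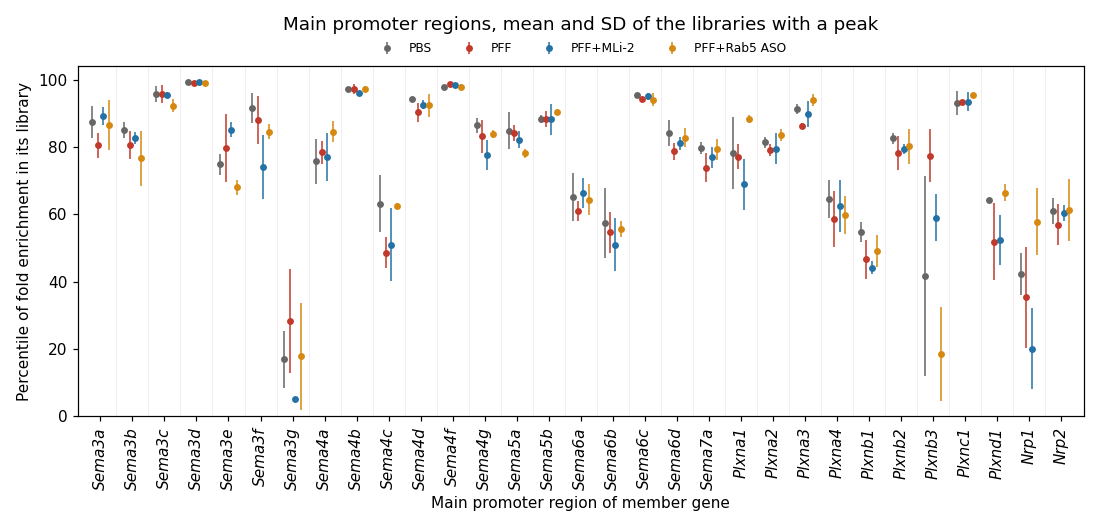
Percentile of fold enrichment of the main promoter region of each of 31 genes, as the mean (points) and SD (bars) of the libraries with a peak in each group. Sema3d and Sema4f lie near the top in every group, Sema3g is low in every group, and Plxnb3 is highest in PFF.

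The PBS libraries held 377 ± 43.8 called member regions each (SD, n = 3), PFF 401 ± 13.6, PFF+MLi-2 346 ± 8.66 and PFF+Rab5 ASO 388 ± 18.2. As a share of all regions called in the library these were 0.286%, 0.287%, 0.282% and 0.273%. Promoter regions and introns did not run in parallel. The PFF+Rab5 ASO libraries had 81 ± 4.36 promoters and 276 ± 12.1 introns, PFF 91.3 ± 2.52 and 279 ± 14.5, PFF+MLi-2 85 ± 3.61 and 235 ± 7.57, and PBS 86.3 ± 7.51 and 261 ± 36.0. The promoter counts of PFF+Rab5 ASO (86, 78 and 79) were all below those of PFF (91, 94 and 89), whereas the promoter regions of all protein-coding genes overlapped between these groups (23766 to 26090 and 24816 to 26559). The members were 0.328% to 0.330% of the promoter regions called in PFF+Rab5 ASO and 0.348% to 0.359% in PFF. No test was made of this difference. The intron counts of PFF+MLi-2 (226, 240 and 238) were all below those of PFF (294, 278 and 265). The lists differed in size as well. The PFF+MLi-2 libraries held 121668 to 123588 regions in all, PFF 129291 to 147785 and PFF+Rab5 ASO 131866 to 154769, and the introns of all protein-coding genes gave 43623 to 43931 regions in PFF+MLi-2 and 47131 to 54763 in PFF, so the lower intron counts of PFF+MLi-2 go with shorter lists.

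The first comparison, PFF vs PBS, asks which regions respond to the fibrils. No member region passed the threshold. Over the 220 member regions called in all libraries, limma on the normal scores of the within-library rank gave 0 at an adjusted p under 0.05, as it did over all 72465 regions tested (0%), with 27 members (12.3%) at an unadjusted p under 0.05 compared with 9.72% of all. The median effect, in SD of the score, was -0.08 compared with -0.02 for all regions, with 81 members above and 139 below 0.

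Both promoters and introns tilted below 0. Of 140 member introns, 82 had a negative effect (58.6%, compared with 49.2% of all introns of protein-coding genes), with a median of -0.06 compared with 0.01. Leaving out 1 library gave 75 (without PBS replicate 1) to 81 negative introns and a median between -0.02 (without PBS replicate 2) and -0.11 (without PBS replicate 3). Of 60 member promoters, 46 had a negative effect and 14 a positive one, with a median of -0.21. Promoters of protein-coding genes tilted the same way, with a median of -0.08 and 64.4% negative, compared with 76.7% of the member promoters. Of the 29 main promoters tested, 25 were negative. The 4 others were those of Sema3c, Sema3e, Sema4a and Sema4f. Without PBS replicate 1 the member promoters gave 45 negative effects and a median of -0.26, and all promoters gave 67.4% and -0.12. Without PBS replicate 2 the tilt was weaker, with 42 negative effects and a median of -0.10 for the members and 58.9% and -0.05 for all promoters. Single promoters did not pass, and the smallest limma adjusted p among them was 0.421. Promoters of cell type markers tilted below 0 as well. Of 22 marker promoters called in every library, 20 had a negative effect, with a median of -0.18, and by limma 0 passed, with 2 at an unadjusted p under 0.05. Those were Gad1, which encodes a GABA-synthesizing enzyme of interneurons (-0.90 ± 0.29), and Bcl11b, a transcription factor of deep-layer projection neurons (-0.54 ± 0.21). All 5 neuronal, 5 projection neuron, 4 interneuron and 3 astrocyte promoters tested were negative, as were 2 of 4 of the oligodendrocyte lineage and the endothelial Kdr. The mean percentile of the interneuron promoters was 59.5 to 61.3 in the PBS libraries and 51.1 to 52.1 in PFF. Among them Gad1 fell from a group mean of 50.9 to 22.4, Dlx1 from 71.7 to 68.0 and Dlx2 from 67.7 to 62.3. Gad2 stood at 52.0 and 54.0. Projection neuron promoters lay at 55.2 to 63.1 and 49.2 to 52.5, and astrocyte promoters at 69.7 to 74.6 and 57.7 to 68.9. The ranges of the 2 groups overlapped for neuronal promoters (81.0 to 85.4 and 80.3 to 83.9). They also overlapped for the oligodendrocyte lineage (77.1 to 80.0 and 75.3 to 81.1) and Kdr (71.9 to 81.7 and 71.8 to 79.0). The part of the cell mix in the tilt of the members was not tested.

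The largest effects lay in introns of both co-receptors, of Plxna4 and of 3 membrane-bound ligands, and none of them passed the limma threshold. An intron 1 region of Nrp2, chr1:62717990-62718191, had an effect of 1.27 ± 0.26 (SE; limma adjusted p = 0.22), at 82.9 ± 3.68 (SD, n = 3) in PFF and 50.5 ± 11.4 in PBS. An intron 1 region of Plxna4, chr6:32520182-32520486, had 1.30 ± 0.40 (limma adjusted p = 0.345), at 70.5 ± 2.54 and 31.4 ± 31.7. In a Sema6d intron, chr2:124429790-124430219, the effect was 1.03 ± 0.37 (limma adjusted p = 0.406). On the negative side stood an intron 2 region of Sema4d, chr13:51729883-51730303 (-1.25 ± 0.29, limma adjusted p = 0.246), an intron 3 region of Sema5a, chr15:32437751-32437919 (-1.18 ± 0.30, limma adjusted p = 0.27), and the intron 4 region of Nrp1 printed above, chr8:128428970-128429556 (-0.94 ± 0.22, limma adjusted p = 0.244). The libraries of the groups did not overlap for Nrp2, Plxna4, Sema4d and Nrp1. Of the 220 members, 40 had no overlap between the groups (18.2%), compared with 14.6% of all regions tested.

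Regions that were gained (3 of 3 PFF libraries, 0 of 3 PBS) or lost (the reverse) were few. A single region cannot reach an exact p under 0.1 with 3 libraries against 3, and these are counts without a test. Of the 590 member regions called in the 6 libraries, 4 were gained (0.678%, compared with 1.1% of all regions) and 2 lost (0.339%, compared with 0.405%), all in introns. The gained regions were in intron 1 of Sema5a (13, 17 and 11 fragments), intron 11 of Nrp1 (12, 12 and 12), intron 13 of Plxna2 (9, 12 and 12) and intron 11 of Sema5b (11, 11 and 10). The lost regions were in intron 4 of Plxnc1, with 16, 11 and 13 fragments in PBS, and intron 16 of Sema5a, with 14, 12 and 10. The member shares were at or below the background.

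The second comparison, PFF+MLi-2 vs PFF, asks what the LRRK2 inhibitor changes in neurons with fibrils. It shares the PFF libraries with the first, so that the values of both move with them. Limma called 0 of 220 member regions and 0 of all 72465 (0%), with 29 members (13.2%) at an unadjusted p under 0.05 compared with 11.4% of all. Of the 60 member promoters, 42 had a positive effect and 18 a negative one, with a median of 0.15 compared with 0.09 for all promoters, of which 35.7% were negative. Marker promoters moved as well, in the classes with most promoters called in every library. Their median percentile went from PFF to PFF+MLi-2 from 91.1 to 93.8 for neurons, 53.0 to 60.8 for projection neurons and 51.8 to 58.2 for astrocytes. It fell from 54.0 to 48.3 for interneurons and was 76.5 in both groups for the oligodendrocyte lineage. The part of the cell mix was not tested.

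The 3 largest effects in each direction lay in introns, apart from 1 exon region of Sema5b, and did not pass. Sema5b, a transmembrane ligand of class 5, was the gene with the most entries. Its intron 1 region at chr16:35570572-35571029 stood at 55.5 ± 1.70 (SD, n = 3) in PFF+MLi-2 and 82.8 ± 2.69 in PFF (effect -1.005 ± 0.18, limma adjusted p = 0.187), its exon region at chr16:35663989-35664423 at 55.8 ± 5.16 and 80.2 ± 2.07 (-0.86 ± 0.19, limma adjusted p = 0.218), whereas a further intron 1 region at chr16:35587878-35588164 stood at 59.2 ± 4.75 and 29.7 ± 13.4 (1.04 ± 0.22, limma adjusted p = 0.202). The effects within this gene thus ran in both directions. A Sema6d intron, chr2:124408303-124408603, had 1.26 ± 0.34 (limma adjusted p = 0.271), intron 2 of Sema4d, chr13:51761206-51761546, had 1.07 ± 0.21 (limma adjusted p = 0.195), and the intron 4 region of Sema3e had -0.98 ± 0.24 (limma adjusted p = 0.24). Of the 220, 37 had no overlap between the groups (16.8%), compared with 18.1% of all.

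By calls, 1 member region of 569 was gained with MLi-2 (0.176%, compared with 0.374% of all) and 11 were lost (1.93%, compared with 1.64%). The 1 gained was the Plxnc1 intron 4 region without a peak in PFF, with 12, 13 and 18 fragments in PFF+MLi-2. Among the 11 lost were the 4 regions gained in PFF vs PBS, in Sema5a, Nrp1, Plxna2 and Sema5b. In those 4 the same PFF libraries carry both calls. The others lay in Plxna2 (introns 8 and 12), Plxnc1 (introns 1 and 2), Sema3c (intron 2), Sema6d (intron 1) and the Plxnb3 promoter. The Plxna2 intron 8 region, chr1:194753283-194753445, was called in all 9 libraries of the other groups with 11 to 15 fragments and in 0 of 3 with MLi-2. The Plxnc1 intron 1 region, chr10:94940836-94940955, had 26, 30 and 22 fragments in PFF at a percentile of 2.24 ± 1.97.

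**Figure D3:**
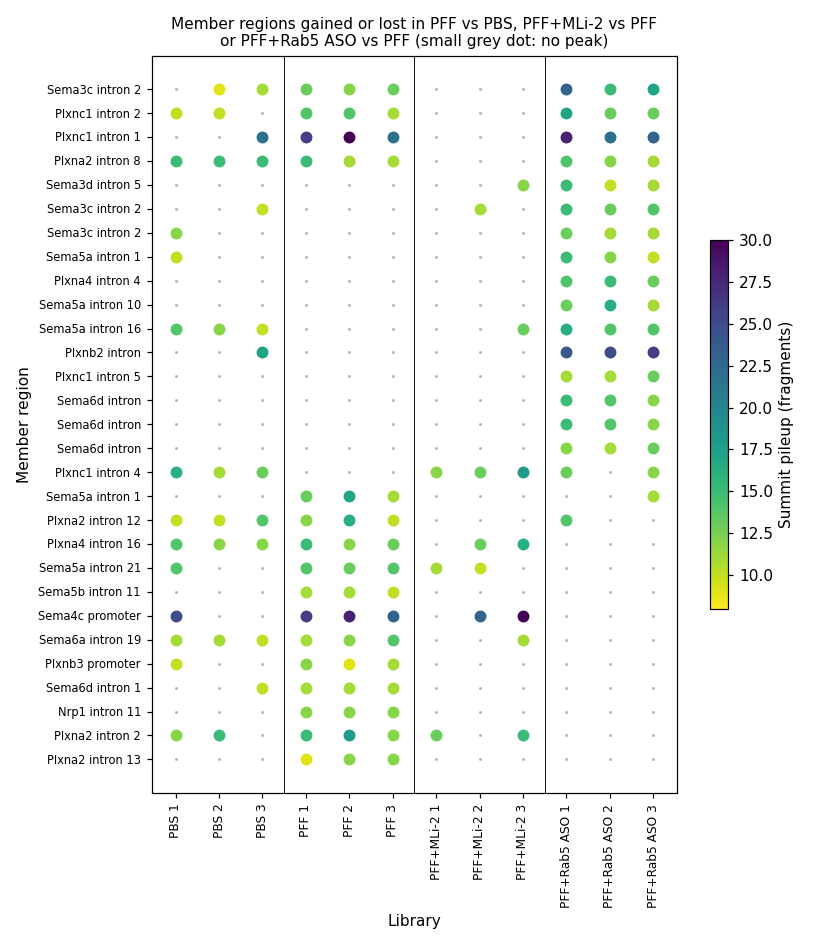
Summit pileup in fragments (colour) of the 29 member regions that were gained or lost between PFF and PBS or between either treatment and PFF, in each of 12 libraries, with a small grey dot where no peak was called. Only the regions of Plxnc1 intron 1, Plxnb2 and the Sema4c promoter hold more than 20 fragments in each library of a group.

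The third comparison, PFF+Rab5 ASO vs PFF, asks what the knockdown of Rab5 changes in neurons with fibrils. Here 9 member regions passed, 7 higher and 2 lower with the ASO, 8 of them in introns and 1 upstream of Sema3g. The excess of higher regions depends on the processing, with 6 higher and 1 lower on the log2 fold, 4 and 3 with the -log10 p-value, 6 and 5 with regions called in the 6 libraries, and 2 and 2 with all 12 libraries in 1 fit. Receptors held 5 of the 9, with 3 in Plxna4 alone, and ligands the other 4. By limma (adjusted p under 0.05 over all regions) the 9 were 4.09% of the members tested, compared with 3.83% of all 72465 regions. The 7 higher regions compare with 1.97% of all regions and the 2 lower with 1.86%. Of the 140 introns 8 passed (5.71%, compared with 4.73% of introns of protein-coding genes), and of the 13 upstream regions 1 passed, compared with 3.18%. By limma 0 of 60 promoters passed, compared with 1.19%, and 0 of 7 exon regions, compared with 3.92%, with 0 of the 7 at an unadjusted p under 0.05 (compared with 20.4%). At an unadjusted p under 0.05 limma gave 11 of the 60 promoters (18.3%, compared with 11.2% of all promoters) and 58 of the 220 members (26.4%, compared with 21.1% of all). The shares of the members lay close to the background. The median effect was 0.03, compared with 0.01. The shorter smallest peak width and the greater depth of the ASO libraries run along with these values.

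Plxna4 held the greatest changes. Its intron 12 region, chr6:32212456-32212777, of which 300 bases are among the sequences above, lay at percentiles of 63.5, 56.6 and 33.6 in PFF, and at 84.0, 89.8 and 91.5 in PFF+Rab5 ASO. It lay at 83.6, 56.2 and 77.7 in PBS and at 19.8, 48.4 and 60.2 in PFF+MLi-2, so the ASO libraries stood above all others, though just above PBS replicate 1. The effect over PFF was 1.59 ± 0.25 (SE; limma adjusted p = 0.0187), with 23, 25 and 27 fragments in the ASO libraries and 16, 14 and 11 in PFF.

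The second Plxna4 region, in intron 3 at chr6:32472109-32472385, lay at 53.4, 47.5 and 46.6 in PFF and at 83.4, 83.4 and 82.2 in PFF+Rab5 ASO. PBS gave 53.4, 64.1 and 25.5 and PFF+MLi-2 44.0, 20.6 and 55.0, so all 9 other libraries were lower. Its effect was 1.35 ± 0.18 (limma adjusted p = 0.0152), the smallest adjusted p among the members. The third, in the same intron at chr6:32328051-32328404, lay at 59.9, 53.7 and 61.4 in PFF and at 80.0, 80.5 and 80.4 with the ASO, against 58.2, 73.2 and 74.1 in PBS and 57.6, 59.0 and 64.1 in PFF+MLi-2 (effect 0.91 ± 0.20, limma adjusted p = 0.0403). Plxna4 had 29 regions in the limma test, of which 10 had an unadjusted p under 0.05 (compared with 21.1% of all regions) and 3 passed (compared with 3.83%). Its main promoter lay at 63.7, 63.2 and 49.1 in PFF and at 53.3, 64.0 and 62.0 with the ASO, and the groups overlapped.

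The remaining higher regions were spread over 4 genes. A Sema6d intron region, chr2:124550381-124550682, lies within the long first part of the gene that only its longer transcripts span, at a distance of 59424 bp from the nearest TSS. It rose from 70.2, 62.1 and 51.5 in PFF to 87.8, 86.5 and 89.7 with the ASO (1.22 ± 0.21, limma adjusted p = 0.0218), and PFF+MLi-2 replicate 1, at 90.8, was higher than these. An intron 4 region of Plxna2, a receptor for Sema6a and, with neuropilins, for class 3 ligands, chr1:194740801-194741127, rose from 42.8, 44.1 and 38.8 to 62.2, 68.9 and 69.2 (0.86 ± 0.20, limma adjusted p = 0.0485). It was lowest in PFF+MLi-2, at 2.0, 25.3 and 13.3.

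A region 2091 bp upstream of Sema3g, chr14:31215563-31215769, lies inside the neighbouring gene Nisch and so may belong to either. It rose from 63.9, 47.0 and 46.9 to 77.4, 74.6 and 75.2 (0.87 ± 0.21, limma adjusted p = 0.0489), with PBS at 78.3, 65.7 and 58.4. A region in intron 1 of Sema4b, chr7:80194419-80194628, was among the lowest peaks of the list in the other 3 groups, at 0.2 to 5.5, and rose to 32.9, 22.2 and 21.8 with the ASO (0.86 ± 0.19, limma adjusted p = 0.0388). Its pileup changed less than its rank, from 30, 33 and 28 fragments in PFF to 37, 33 and 31.

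Of the lower regions, 1 belonged to a ligand and 1 to its receptor. Sema3e, a class 3 ligand that binds Plxnd1 without a neuropilin, held a region in intron 4, chr5:14195218-14195677, with the sequence printed above. It lay at 76.9, 84.8 and 83.9 in PFF and at 54.9, 55.4 and 41.7 with the ASO, and also lower in PBS (65.2, 62.0 and 67.7) and PFF+MLi-2 (65.1, 48.4 and 49.8), so PFF stood above all 9 other libraries. The effect over PFF was -1.22 ± 0.21 (limma adjusted p = 0.0229). An intron 1 region of Plxnd1, chr6:115989664-115989836, fell from 36.1, 27.9 and 38.8 to 1.2, 5.2 and 5.1 (-1.07 ± 0.24, limma adjusted p = 0.0428), with 32, 30 and 33 fragments in PFF and 21, 20 and 22 with the ASO. PFF+MLi-2 lay at 8.5, 9.3 and 36.7 and PBS at 50.9, 34.9 and 10.4. A neighbouring intron 1 region of Plxnd1, chr6:115986565-115986836, had an effect of -0.98 ± 0.24 and just missed the threshold (limma adjusted p = 0.0512).

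These calls were sensitive to the design and to single libraries. The study's methods spread the cultures of 1 pregnancy over the groups, and the labels do not say whether a replicate number marks a pregnancy. With the replicate number as a block, 4 of the 9 passed by limma, those of Plxna4 intron 12 (adjusted p = 0.0386), Plxna4 intron 3 at chr6:32472109-32472385 (0.0348), Sema6d (0.0429) and Sema3e (0.042), and the other 5 had adjusted p of 0.0553 to 0.0722. Without PFF replicate 1, 5 member regions passed (1.37% of all regions did), without PFF replicate 2, 3 (1.30%), without PFF replicate 3, 1 (0.68%), without PFF+Rab5 ASO replicate 1, 0 (0%), and without PFF+Rab5 ASO replicate 2 or 3, 1 (1.05% and 0.46%). The share of all regions fell along with the member counts. Every one of the 9 effects kept its sign in the 6 fits. The second Plxna4 region passed in 5 of the 6 (limma adjusted p of 0.0373 to 0.0546, above 0.05 without PFF+Rab5 ASO replicate 1), the first in 2 (0.0387 to 0.0614), the Sema6d and Sema3e regions in 1 each, up to 0.0706 and 0.0742, and the other 5 in 0, with adjusted p between 0.0568 and 0.139.

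**Figure D4:**
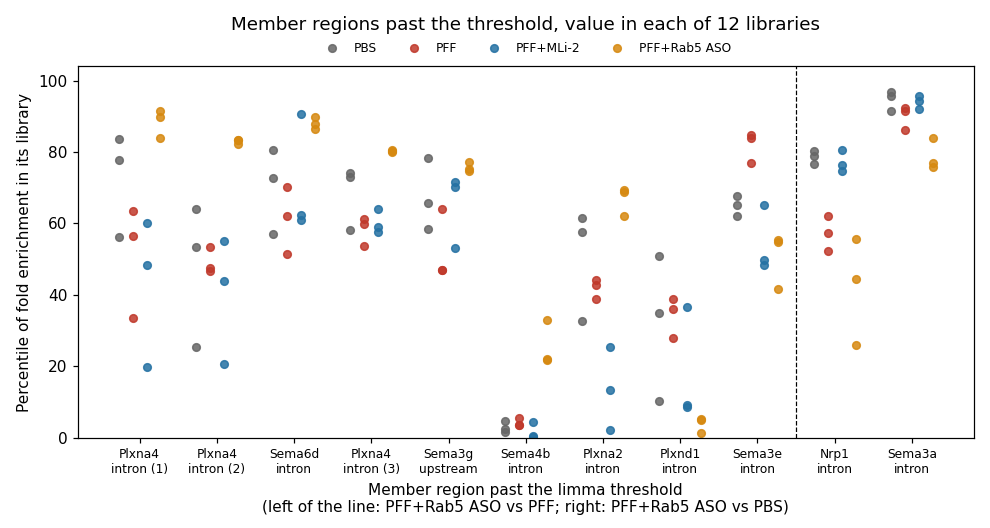
Percentile of fold enrichment in each of 12 libraries (points, coloured by group) for the 11 member regions past the limma threshold in PFF+Rab5 ASO vs PFF (left of the dashed line) or PFF+Rab5 ASO vs PBS (right). The PFF+Rab5 ASO points of the Plxna4 regions lie together above those of PFF, those of Plxnd1 and Sema3e below PFF, and those of Nrp1 and Sema3a below PBS.

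Calls changed more with the ASO than with MLi-2, for the members as for all regions. Of 612 member regions, 12 were gained (1.96%, compared with 2.64% of all) and 10 lost (1.63%, compared with 1.94%). The balance turned to 10 gained and 14 lost with an equal number of top peaks from each library, and likewise when peaks had to cover a share of 0.5 of a region. All 12 gained were introns: 3 each in Sema5a and Sema6d, 2 in Sema3c and 1 each in Sema3d, Plxna4, Plxnc1 and Plxnb2. Of these, 6 had a peak in none of the 9 other libraries, namely those in intron 4 of Plxna4 (14, 15 and 13 fragments), intron 10 of Sema5a (13, 16 and 11), intron 5 of Plxnc1 (11, 11 and 13) and all 3 of Sema6d (15, 14 and 12; 12, 11 and 13; 15, 14 and 12). The region gained in intron 16 of Sema5a was the one absent in PFF, with 16, 14 and 14 fragments.

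The 10 lost regions included 2 promoters. One was the Plxnb3 region printed above. The other, chr1:36556878-36557081 in Sema4c, a ligand of Plxnb2, also lies near the TSS of the noncoding gene D430040D24Rik. It had 26, 28 and 23 fragments in PFF, 25 in PBS replicate 1, and 23 and 30 in PFF+MLi-2 replicates 2 and 3, at a percentile of only 0.66 ± 0.62 in PFF. The introns lost were in Plxna2 (introns 2 and 13), Sema5a (intron 21), Nrp1 (intron 11), Sema6a (intron 19), Plxna4 (intron 16), Sema6d (intron 1) and Sema5b (intron 11). Those of Nrp1, Plxna2 intron 13 and Sema5b were called in PFF alone. Of the 220 regions tested, 65 had no overlap between the groups (29.5%), compared with 25.8% of all.

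Of the 5 comparisons, PFF+MLi-2 vs PBS held the fewest members at an unadjusted p under 0.05. Limma called 0 of 220 members and 0 of all regions (0%), with 16 members (7.27%) at an unadjusted p under 0.05 compared with 5.77% of all. The groups did not overlap for 33 members (15.0%), compared with 10.6% of all. The effects with the greatest size were 0.92 ± 0.48 for the Plxna4 intron 1 region, 0.69 ± 0.29 for a Sema7a promoter region, chr9:57939433-57939721, and 0.68 ± 0.40 for a Sema6d intron, and, below 0, -1.11 ± 0.32 for the Plxna2 intron 4 region, -0.98 ± 0.34 for the Plxna4 intron 12 region and -0.93 ± 0.27 for the main promoter of Sema3f (74.2 ± 9.51 and 91.6 ± 4.47, SD, n = 3), all with a limma adjusted p of 0.815 or more. Of 536 regions, 1 was gained (0.187%, compared with 0.225%), in intron 6 of Sema3a, and 5 were lost (0.933%, compared with 0.577%), 2 of them in Plxna2 and 1 each in Plxna1, Plxna4 and Nrp1.

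In PFF+Rab5 ASO vs PBS, 2 introns passed and both were lower with the ASO. The first belongs to Nrp1, the co-receptor of class 3 ligands, and is the intron 4 region shown above. It lay at 80.3, 78.9 and 76.7 in PBS, at 57.3, 52.4 and 62.0 in PFF, at 74.7, 80.7 and 76.4 in PFF+MLi-2 and at 26.1, 44.5 and 55.8 in PFF+Rab5 ASO. The PBS and PFF+MLi-2 libraries stood together, above PFF, and 2 of 3 ASO libraries were below every PFF library. The effect over PBS was -1.32 ± 0.27 (limma adjusted p = 0.0429). The effect of MLi-2 over PFF was 0.95 ± 0.21 and did not pass (limma adjusted p = 0.21).

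The second belongs to Sema3a, the ligand for which growth cone collapse was first described and which binds Nrp1. In intron 6, chr5:13529192-13529637 lay at 96.9, 91.5 and 95.8 in PBS, 92.3, 91.4 and 86.0 in PFF, 92.0, 94.2 and 95.7 in PFF+MLi-2 and 84.0, 77.0 and 75.9 in PFF+Rab5 ASO, with 33, 26 and 30 fragments in PBS and 23, 19 and 19 with the ASO. The ASO libraries were below all others. The effect was -1.16 ± 0.22 (limma adjusted p = 0.0367). The 2 regions were 0.909% of the members, compared with 1.63% of all 72465 regions and, for lower regions alone, 0.631%. At an unadjusted p under 0.05 limma gave 46 of the 220 members (20.9%, compared with 18.7% of all). Both regions that passed are introns (1.95% of introns of protein-coding genes), and by limma 0 of 60 promoters passed, compared with 0.451%. With the replicate number as a block neither passed, with a limma adjusted p of 0.0782 for Nrp1 and 0.076 for Sema3a, and 0 of all 72465 regions did. Leaving out any 1 of the 6 libraries, PBS replicates 1, 2 and 3 and PFF+Rab5 ASO replicates 1, 2 and 3 in turn, left 0 members past the threshold, with a limma adjusted p of 0.0785 to 0.111 for Nrp1 and 0.0597 to 0.109 for Sema3a.

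That both were lower depends on the processing: on the log2 fold, 3 member regions were higher and 2 lower past the limma threshold, and with all 12 libraries in 1 fit, or with regions called in the 6 libraries, 1 was higher and 3 lower. In the fit of these 6 libraries on regions called in all 12, no member was higher past the threshold, and closest came the second Plxna4 region (1.28 ± 0.30, limma adjusted p = 0.0589), an intron 11 region of Sema5a, chr15:32597190-32597545 (1.12 ± 0.25, limma adjusted p = 0.0522), and the Nrp2 intron 1 region (1.05 ± 0.28, limma adjusted p = 0.0785). The Plxnd1 intron 1 region had -1.02 ± 0.30 (limma adjusted p = 0.1). Of the 220 members, 53 had no overlap between the groups (24.1%), compared with 22.3% of all. By calls, 15 member introns of 590 regions were gained (2.54%, compared with 2.59%) and 3 lost (0.508%, compared with 0.991%). The lost count depends on the rule, with 12 gained and 10 lost with an equal number of top peaks, 15 and 7 with a -log10 q of at least 3, and 14 and 9 with the covering rule. Sema6d held 5 of the 15, Plxna4 2, and Sema3a, Sema3c, Sema3d, Sema5a, Sema5b, Plxna2, Plxnc1 and Plxnd1 1 each. The 3 lost lay in Sema3a, Plxna4 and Sema6a.

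**Figure D5:**
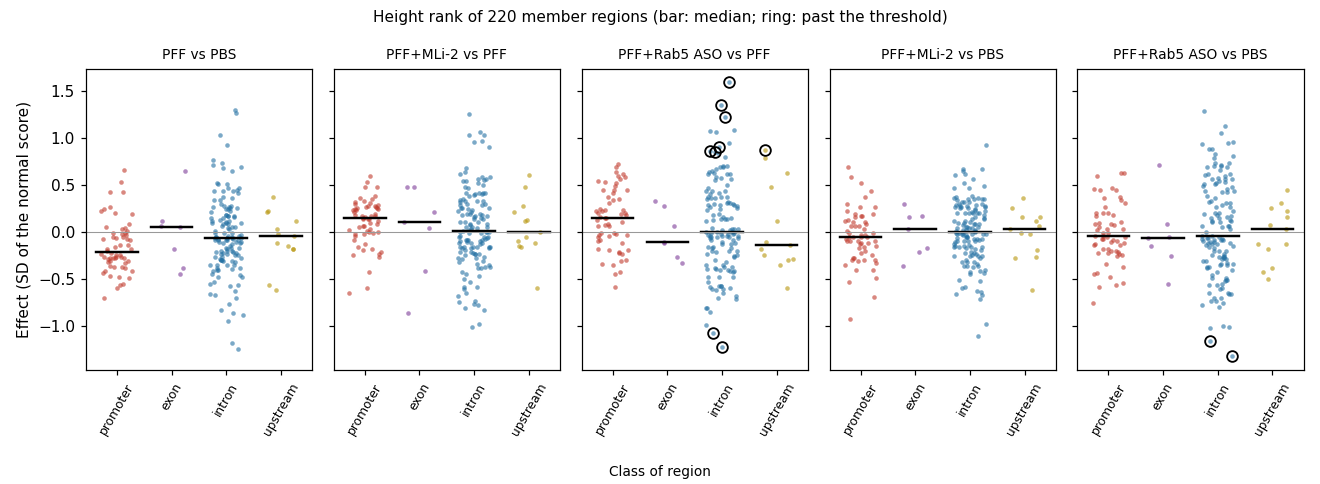
Effect on the height rank (vertical axis, SD of the normal score) of the 220 member regions called in all 12 libraries, by class of region, in 5 comparisons, with the median as a bar and a ring around regions past the limma threshold. Rings appear only in the 2 comparisons of PFF+Rab5 ASO, on introns and 1 upstream region, and the promoter median lies at -0.21 in PFF vs PBS and at 0.15 in both comparisons with PFF.

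Sema6b, a transmembrane ligand for the A-type plexins, held 12 regions, of which 6 were called in every library. Its main promoter, chr17:56140185-56140477, lies over the first exon and the bases printed above. It stood at 67.4, 58.4 and 46.8 in PBS, at 57.7, 58.7 and 47.8 in PFF, at 42.1, 57.0 and 54.1 in PFF+MLi-2 and at 53.2, 57.9 and 55.8 in PFF+Rab5 ASO. The groups overlapped throughout, and the effect in PFF vs PBS was -0.18. No region of Sema6b was gained, lost or past the limma threshold in any of the 5 comparisons. Of its 6 tested regions, 0 had an unadjusted limma p under 0.05 in PFF+Rab5 ASO vs PFF, compared with 21.1% of all regions. From reads tested with DiffChIPL, the study reports that chromatin at Sema6b opened with PFF while its transcript fell. In PFF vs PBS the rank test called 0 of all 72465 regions, so its result for Sema6b cannot speak to that report.

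By family, the numbers stayed small. In PFF+Rab5 ASO vs PFF, 4 of 123 semaphorin regions passed by limma (3.25%), 5 of 75 plexin regions (6.67%) and 0 of 22 neuropilin regions, compared with 3.83% of all regions, and 32, 22 and 4 had an unadjusted p under 0.05 (26.0%, 29.3% and 18.2%, compared with 21.1%). The A-type plexins held 4 of the 5 receptor regions. Within the semaphorins, class 3 held 2, classes 4 and 6 held 1 each, and classes 5 and 7 held 0. The difference between the families was not tested.

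Other genes of the pathway were described from a list of partners. The list held 35 genes of semaphorin signalling, such as the cell adhesion molecules L1cam and Nrcam, the collapsin response mediators Crmp1 and Dpysl2 to Dpysl5, the Mical oxidases, Farp1 and Farp2, RhoA exchange factors and the kinases Fyn and Cdk5, and gave 625 regions, of which 181 were tested. In PFF+Rab5 ASO vs PFF, 5 passed (2.76%, compared with 3.83% of all regions), 1 higher and 4 lower (compared with 1.97% and 1.86% of all). The higher 1 lay in an intron of Fyn, a kinase downstream of A-type plexins (effect 1.76 ± 0.32, limma adjusted p = 0.0242). The lower ones were the Crmp1 promoter (-0.89 ± 0.20, limma adjusted p = 0.0406) and introns of Arhgef12, a RhoA exchange factor bound by B-type plexins (-1.35 ± 0.24, limma adjusted p = 0.0229), Nrcam, which forms a complex with neuropilins (-1.07 ± 0.26, limma adjusted p = 0.0497), and Ptk7 (-0.89 ± 0.21, limma adjusted p = 0.0475). In PFF+Rab5 ASO vs PBS, 4 passed (2.21%, compared with 1.63% of all regions) and all were lower (compared with 0.631%), 2 in Nrcam and 1 each in Farp2 and Arhgef12. With the replicate number as a block, 0 of all 72465 regions passed in that comparison, so none of these 4 did. Leaving out 1 library left 0 to 35 of all regions past the threshold. By limma 0 of 181 passed in the 3 other comparisons, with 25 at an unadjusted p under 0.05 in PFF+MLi-2 vs PFF (13.8%, compared with 11.4% of all), 9 in PFF+MLi-2 vs PBS (4.97%, compared with 5.77%) and 11 in PFF vs PBS (6.08%, compared with 9.72%).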

How the data were processed

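Reads had been trimmed (Trim Galore 0.6.7) and aligned to GRCm38 (Bowtie2 2.5.1) by the authors, who called peaks per library (MACS2 2.2.7.1). Duplicate handling, read shifting for Tn5 and the MACS2 options are not given in the sources used here, and each changes peak width and number. Each deposited list holds, per peak, the fold enrichment as a ratio to the local background, both p-value and q-value as -log10, and a score. The deposited score was not used. Peaks of all libraries were merged and assigned to genes of GENCODE vM21. Where the authors tested read counts with DiffChIPL, ranks of fold were tested here, since the files hold peaks.

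Percentiles rank the peaks of 1 list. For 72465 regions called in every library, ranks became normal scores, tested with limma 3.58.1 in R 4.3.3 on the 6 libraries of a comparison, two-sided, with Benjamini-Hochberg adjustment over all regions. The test was run on simulated data first. The summit pileup was solved from fold and p-value and was whole within 0.1 for 100% of peaks. Relative depth is the commonest background over the smallest width, scaled to a mean of 1. Other steps used Python 3.11.15 with pandas 2.3.3 and numpy 2.4.6, and figures matplotlib 3.10.9.

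Group came from titles and treatment labels. In both treated groups the description field has PBS where title and treatment have PFF. All libraries are in batch 1, and the study takes each pregnancy as an independent replicate. The members, lists and rules were chosen with earlier results of these data known. Text names, per comparison, up to 10 member regions past the threshold in each direction, or the 3 largest where fewer than 3 passed, and gained or lost regions, up to 5 in each direction; further ones were named after they were seen. Every member gene is named with its regions by class. The alternatives were a replicate block, -log10 p-value in place of fold, all 12 libraries in 1 fit, quantile-normalized log2 fold, regions called in the 6 libraries, other rules for a call, and each library left out.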

Additional observations from a re-analysis of the deposited data

How the results depend on the processing

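In PFF vs PBS and in both comparisons of PFF+MLi-2, limma called 0 member regions under each alternative run, and 0 when any 1 library was left out (range 0 to 0). In PFF+Rab5 ASO vs PFF limma called 7 regions with the -log10 p-value (5 of them among the 9, 2.62% of all regions), 7 on the log2 fold (6 among the 9, 4.51%), 11 with regions called in the 6 libraries (6 among the 9, 3.05%), 4 with all 12 libraries in 1 fit (3 among the 9, 3.97%), and 0 to 5 when 1 library was left out. In PFF+Rab5 ASO vs PBS limma called 0 with the -log10 p-value (0.479% of all regions), 4 with all 12 libraries in 1 fit (2.65%), 5 on the log2 fold (2.39%) and 4 with regions called in the 6 libraries (1.56%, both regions among each of these), and 0 when any 1 library was left out (range 0 to 0). Over the single regions named, 82 alternative fits lost a call, 5 gained one and 287 changed none, and 0 changed sign. Only a region that passed in the main fit could lose a call. These were the 9 in PFF+Rab5 ASO vs PFF and the 2 in PFF+Rab5 ASO vs PBS. Most of the 287 were fits of regions that had not passed. The cause of the lost calls was not tested.

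The methods assign the cultures of 1 pregnancy to different groups, which could pair the libraries, but the labels do not tie the replicate number to a pregnancy. Same-numbered libraries of different groups deviated together only weakly, below the 0.1 asked of a pairing taken from the data. The correlation was 0.00513 to 0.0788 over 18 pairs (median 0.0285) and -0.0706 to 0.0279 over 36 pairs of other numbers (median -0.0161). All same-numbered pairs were thus positive. In 33 of 36 cases a library correlated best with its own number among the 3 libraries of another group. Whether the numbers pair the libraries is not settled. With the replicate number as a block, 4 member regions passed in PFF+Rab5 ASO vs PFF, all among the 9 (background 1671 regions in place of 2772), 0 in PFF+Rab5 ASO vs PBS, and 0 in the other comparisons.

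Calls depend on their rule. Counting 2 of 3 libraries against 0 gave 48 of 590 members gained or lost in place of 6 in PFF vs PBS (6.79% of all regions), 53 of 569 in place of 12 in PFF+MLi-2 vs PFF (7.90%), 74 of 612 in place of 22 in PFF+Rab5 ASO vs PFF (12.3%), 27 of 536 in place of 6 in PFF+MLi-2 vs PBS (5.23%) and 51 of 590 in place of 18 in PFF+Rab5 ASO vs PBS (10.7%). When peaks had to cover a share of 0.5 of a region, PFF vs PBS gave 10 (2.09% of all regions). With an equal number of top peaks PFF vs PBS gave 3 gained and 3 lost in place of 4 and 2, and PFF+MLi-2 vs PFF 2 and 6 in place of 1 and 11. Leaving out 1 library, which itself loosens the rule, gave 12 to 25, 16 to 34, 31 to 47, 7 to 16 and 27 to 33 in that order, with 2.79% to 3.71%, 3.5% to 4.29%, 6.85% to 7.21%, 1.81% to 2.74% and 5.29% to 6.71% of all regions. The mean number of member regions per library, 378, became 337 with equal numbers of top peaks and 295 with the covering rule. Called peaks held as few as 8 fragments, and the part of depth in these calls was not tested.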

Other observations

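Some member regions outside the named sets differed between the groups in the number of libraries with a peak, and they are given as values only. An exon region of Nrp1, chr8:128426949-128427288, which overlaps an untranslated or noncoding exon within intron 4 of the longest coding transcript, was called in 8 libraries. It lay at percentiles of 63.6, 58.7 and 69.7 in PFF+Rab5 ASO, at 12.5 and 6.1 in PBS replicates 1 and 3, at 25.6 and 7.2 in PFF replicates 1 and 3, and at 25.9 in PFF+MLi-2 replicate 1. The ASO libraries were above every other library with a peak. This region lies close to the Nrp1 intron 4 region that was lower with the ASO, and it was not in the limma test because 4 libraries lacked it. It was chosen after its values were seen.

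A Plxnc1 intron 4 region, chr10:94905262-94906085, had the highest mean percentile of the member regions outside promoters that were called in every library. It lay at 98.7, 98.6 and 98.6 in PBS and at 96.0 to 99.0 in the other 9 libraries. A Sema6d intron, chr2:124490407-124490959, lay at 95.0 to 98.8 in all 12. Neither moved past the threshold in any comparison. They too were chosen after their values were seen.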
